A study of Drosophila melanogaster with 12 samples.

Results

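Of 7186 transcript features with values, 224 were recovered above the control with both Brain tumor (BRAT) and Pumilio (PUM) in RNA co-immunoprecipitations analyzed on microarrays (RIP-Chip). A feature is a row of the array table that stands for a FlyBase transcript. The features were chosen by their measured ratios. A ratio is the log2 signal in the RIP minus the log2 signal in the control RIP of the same normalization set and replicate number. A feature was kept when its mean BRAT ratio and its mean PUM ratio were both at least 0.585, which is 1.5-fold, and all 6 ratios lay above 0. These 224 are called co-enriched transcripts here. Because the ratios chose them, the ratios are given below as a description and are not tested.

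The RNA came from w1118 embryos, a white-eyed laboratory strain that is otherwise wild type, collected 0 to 3 h after egg-laying. Extract was incubated with a synthetic antigen-binding fragment (Fab) against BRAT, with a Fab against PUM or with a control Fab, and total RNA was extracted from each precipitate. There were 3 biological replicates of each, all from the same strain and age. The control preparations appear in 2 copies. The copy in the BRAT set was scaled together with the BRAT RIPs, the copy in the PUM set together with the PUM RIPs. An enrichment means recovery with the Fab relative to the bulk of features on the same array, and amount of protein, amount of mRNA and strength of binding cannot be told apart in it.

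Both are RNA-binding proteins, BRAT of the TRIM-NHL family and PUM of the PUF family. PUM binds RNA through its Pumilio-homology domain at elements with a UGUA core, and BRAT binds through its NHL domain at elements with a UGUU core. In the early embryo, where development runs on mRNAs that the mother loads into the egg, both act with Nanos on maternal hunchback mRNA and repress its translation in the posterior. PUM and BRAT also act apart from each other on other mRNAs. No element was searched for, since transcript sequences were not used here.

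Gene symbols could be given to few features. The RefSeq gene table used here (Release 6 plus ISO1 MT assembly) carries transcript identifiers only among its synonyms. It paired 37 of the 7186 features and 2 of the 224 co-enriched transcripts with a gene, and in 1 of these 2 with a single gene. That transcript is FBtr0071349 of fend (forked end), which encodes a transmembrane protein that takes part in the guidance of motor axons. All other transcripts are named by their FlyBase identifiers, without a function. The lists of patterning, germ plasm, cell cycle and other genes could not be applied, and the stage of the embryos could not be checked against marker genes.

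The co-enriched transcripts had a median BRAT ratio of 1.12 and a median PUM ratio of 0.94, which are 2.17-fold and 1.91-fold. Over all 7186 features the medians were -0.15 and 0.01. BRAT ratios of the co-enriched transcripts reached 3.95, and PUM ratios reached 3.30. A mean ratio of 4-fold or more was measured for 34 of them with BRAT and for 13 with PUM. The smaller of the mean ratios had a median of 0.81, and it was at least 2-fold in 58 transcripts and at least 4-fold in 5. The set is thus mostly made of moderate enrichments, and in 83 transcripts each of the 6 ratios by itself passed 0.585.

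**Figure D1:**
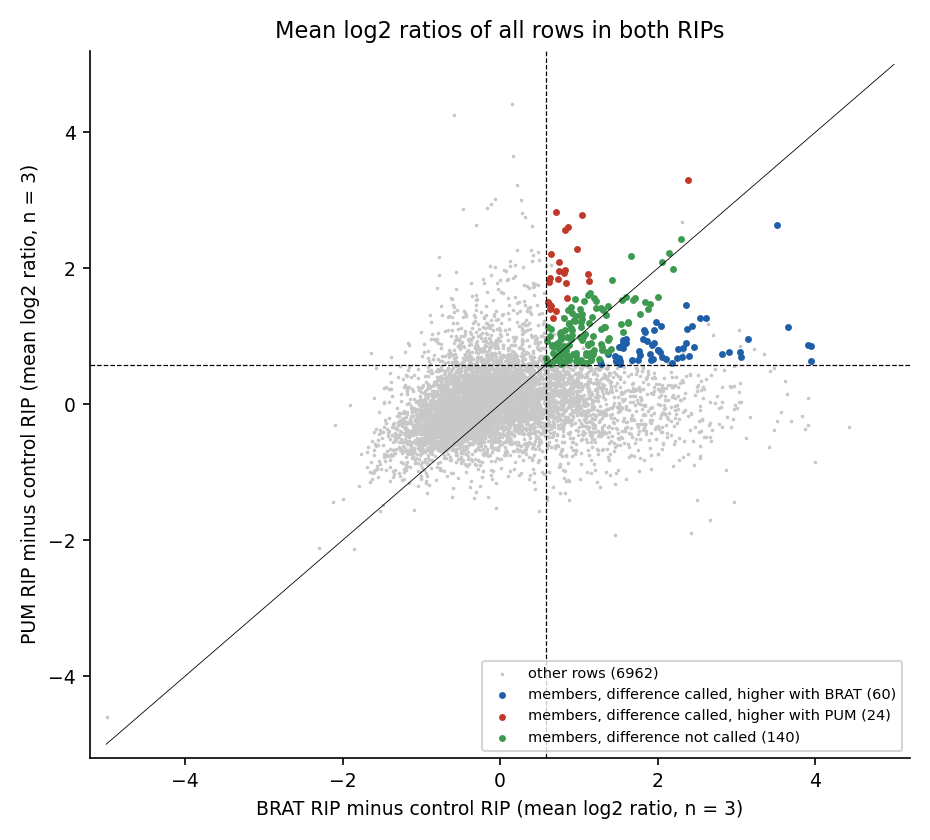
Mean log2 ratio of PUM RIP to control RIP (y axis) against that of BRAT RIP to control RIP (x axis) for each feature, with the 224 co-enriched transcripts in color, dashed lines at 0.585 and a solid line where both are equal. Most colored points lie near the dashed corner. By the test of the difference 60 (26.8%, against 17.2% of all features) are called higher with BRAT (blue) and 24 (10.7%, against 22.2%) higher with PUM (red).

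By replicate, the BRAT ratios of the co-enriched transcripts had medians of 1.18, 1.12 and 1.28 in replicates 1, 2 and 3. Their PUM ratios had medians of 1.08, 0.99 and 0.91. All features together had medians between -0.17 and -0.09 with BRAT and between -0.01 and 0.04 with PUM. No replicate stood far from the others in these medians, and the PUM ratios of replicate 3 were the lowest of the 6. The rule asked for a positive ratio in every replicate, which limits how far these medians can differ. With replicate 3 left out of the choice, its median PUM ratio was 0.51, as given below. The labels give Cy5 for the 3rd replicate in all groups and Cy3 for the others, and dye and replicate number cannot be told apart.

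**Figure D2:**
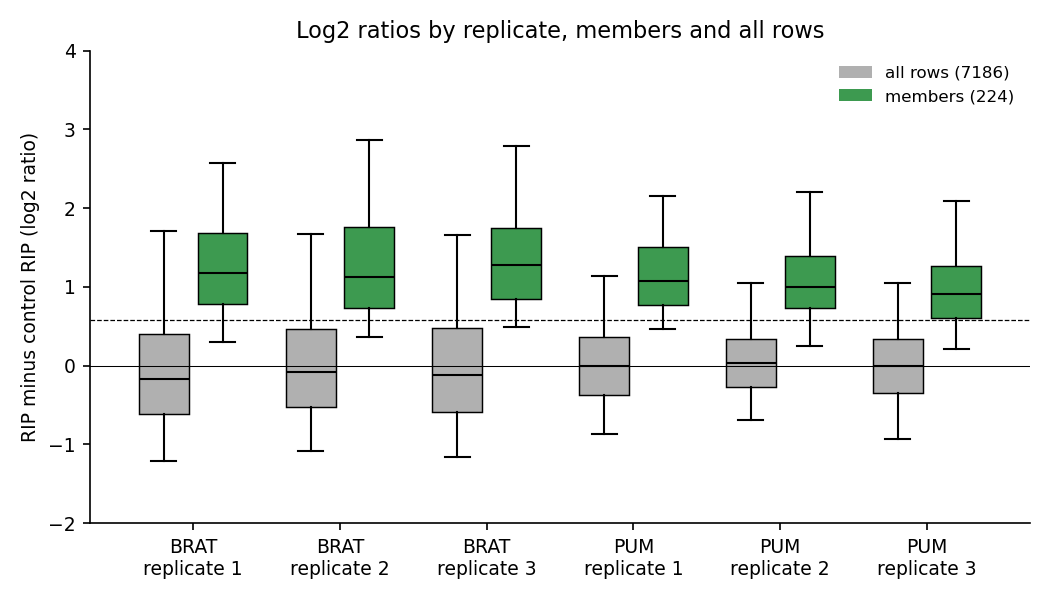
Log2 ratio of RIP to control RIP (y axis) in each replicate of both RIPs (x axis), for all 7186 features (gray) and the 224 co-enriched transcripts (green). Boxes give quartiles, lines in them the median and whiskers the 5th and 95th percentiles, and the dashed line is at 0.585. The green medians lie between 0.91 and 1.28.

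The edge of the set was crowded. Of the 224 transcripts, 56 had a smaller mean ratio within 0.1 above 0.585, while 92 other features with 6 positive ratios lay within 0.1 below it. Just inside were FBtr0082854, with mean ratios of 0.59 (BRAT) and 0.69 (PUM), and FBtr0088434, with 1.52 and 0.59. Just outside were FBtr0086977, with 1.36 and 0.58, and FBtr0089902, with 0.58 and 2.03. A further 32 features passed 0.585 in both means but not 0 in every replicate. Among these, FBtr0290271 had the highest smaller mean, and it came from replicate 1, with ratios of 7.78 with BRAT and 8.06 with PUM there. Its other ratios lay between -1.18 and 0.35. FBtr0081412 and FBtr0081413 failed in a single ratio, that of PUM replicate 3, at -0.07 and -0.18.

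To describe how firmly the enrichments were measured, the paired limma fit over all features was read for the co-enriched transcripts. A call needed a Benjamini-Hochberg adjusted p under 0.05 over all features and a fold of 1.5 or more. With BRAT 221 of the 224 (98.7%) were called higher, where 19.1% of all features were. In the PUM RIP 154 (68.8%) were called higher, where 6.96% of all features were. Calls in both RIPs were made for 153 (68.3%), against 2.14% of all features. The rule used these same contrasts, so nothing is read from these shares. Without replicate 1, 28 of the 224 were called in the PUM RIP and 25 in both. Without replicate 2 these counts were 109 and 105, and without replicate 3 they were 141 and 122. A fit that ignored the replicate numbers called 66 and 49. Calls over all features were not counted in these refits. A loss in the set cannot be told apart from one over the whole array, and its cause was not tested.

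The signals themselves overlapped more than the ratios. All 3 BRAT RIP signals lay above all 3 control signals in 177 of the 224 (79.0%), where 19.8% of all features did. The 3 PUM RIP signals lay above the control signals in 157 (70.1%), against 12.5% of all features. Both held for 138 (61.6%), against 3.53% of all features. In the remaining 86 RIP and control signals overlapped in at least 1 set although all 6 ratios, taken within a replicate number, were positive. The median SD of a co-enriched transcript over 3 replicates was 0.33 in the BRAT RIP and 0.40 in the PUM RIP, where all features had 0.27 and 0.28.

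FBtr0086152 and FBtr0071122 headed the set by their smaller ratio. FBtr0086152 had log2 signals of 10.64, 10.68 and 10.87 in the BRAT RIP and of 8.35, 8.35 and 8.33 in the control RIP. Its PUM set held 11.94, 12.23 and 11.65 against 8.59, 8.59 and 8.74. Every RIP signal lay more than 2 log2 units above every control signal of its set. The mean ratios were 2.38 (5.22-fold) with BRAT and 3.30 (9.84-fold) with PUM, and their difference of -0.92 had a 95% confidence interval from -1.42 to -0.42 (limma adjusted p = 0.00943). FBtr0071122 had 11.05, 11.06 and 11.08 in the BRAT RIP against 8.80, 5.96 and 7.89 in the control. Its PUM set held 10.92, 10.46 and 10.15 against 9.14, 6.21 and 8.27. Here the RIP signals lay close together and the control of replicate 2 lay far below the other controls, so that its BRAT ratio of 5.10 and PUM ratio of 4.25 in replicate 2 both rest on a single control preparation. Its mean ratios were 3.51 (11.4-fold, SE 0.45) with BRAT and 2.64 (6.23-fold, SE 0.45) with PUM. The SE of 0.45 was the largest of all co-enriched transcripts in both RIPs, where the median was 0.19.

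FBtr0114604, FBtr0087632 and FBtr0074455 also passed 4-fold in both means. FBtr0087632 had BRAT ratios of 2.72, 1.96 and 1.75 and PUM ratios of 2.51, 2.20 and 1.98. Its signals were 11.87, 10.69 and 10.48 with BRAT against 9.15, 8.73 and 8.73 in the control, and 11.87, 11.25 and 10.94 with PUM against 9.36, 9.04 and 8.96. The groups did not overlap in either set. FBtr0114604 had the lowest mean signal of all co-enriched transcripts, 6.95 over the 12 columns. Its control signals in the BRAT set were 6.61, 5.29 and 5.30, and its PUM ratios were 0.94, 3.27 and 3.10, so that replicate 1 had the highest control and the lowest PUM ratio. The control signals of replicate 2, 5.29 in the BRAT set and 5.21 in the PUM set, were the lowest of all 7186 features in those columns, so that its ratios and its rank rest on controls at the lower end of what the arrays recorded. The next in rank, FBtr0078132, had mean ratios of 2.19 and 1.99, and FBtr0070760 had 1.66 and 2.17 at a mean signal of 7.55. FBtr0086150, FBtr0081902 and FBtr0075607 closed the first 10, with mean signals of 12.54, 13.07 and 7.99. The difference of FBtr0087632 was -0.08 with a 95% confidence interval from -0.52 to 0.36, and that of FBtr0086150 was 0.02 with an interval from -0.46 to 0.49.

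**Figure D3:**
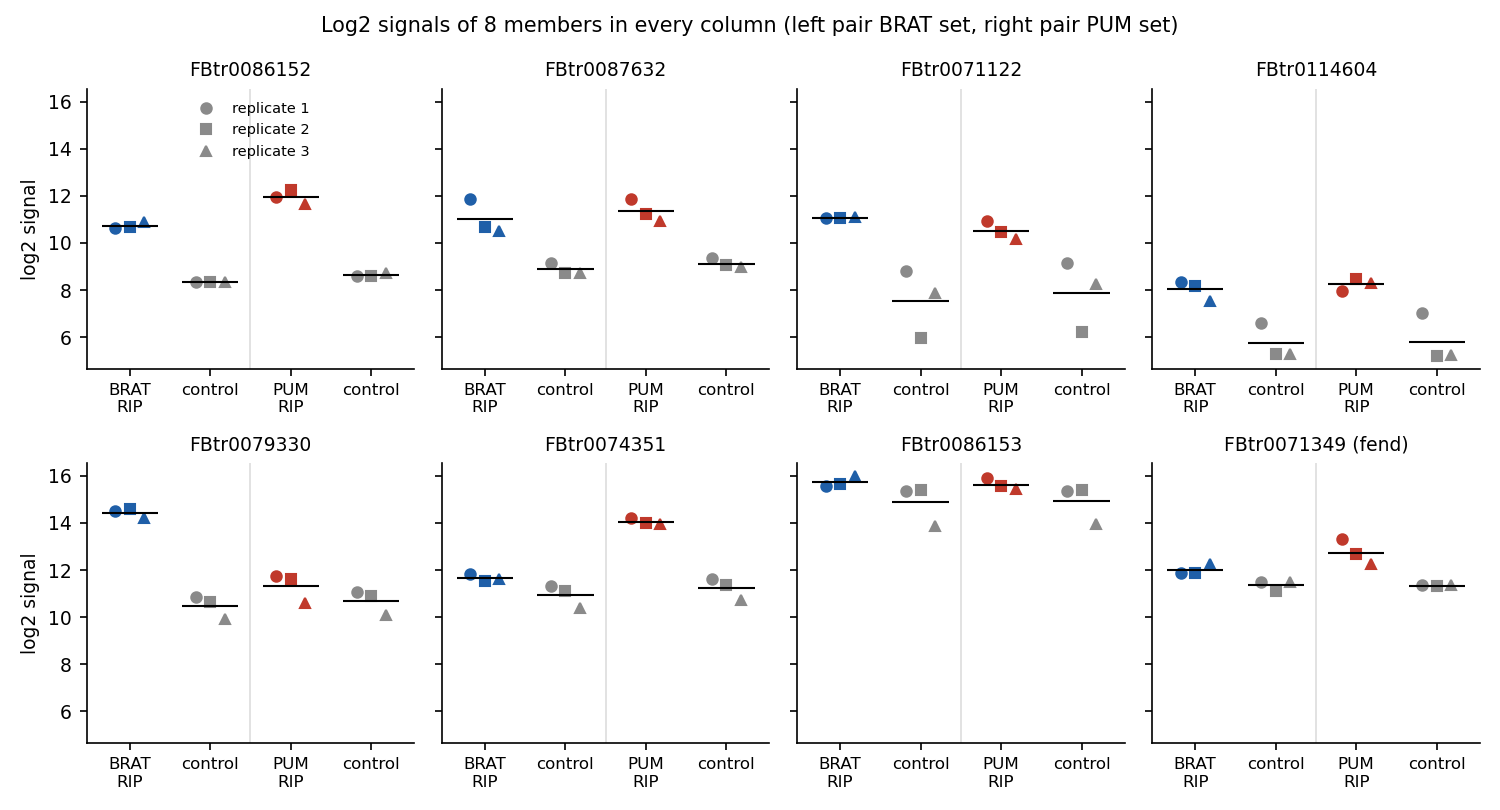
Log2 signals (y axis) of 8 co-enriched transcripts in the 3 replicates of the BRAT RIP, its control, the PUM RIP and its control (x axis), with black lines at the means. Markers give the replicate. FBtr0086152 shows tight groups, FBtr0071122 and FBtr0114604 have a control signal far from the other 2, and FBtr0086153 lies near 16 except in the control of replicate 3.

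To ask whether a co-enriched transcript was recovered better with one protein than with the other, the enrichments were compared. The difference between the enrichments, BRAT ratio minus PUM ratio, was tested in limma on its 3 values, 1 per replicate number, over all features. The rule set the same threshold for both ratios and did not fix which is higher, but the difference is made of the values that chose the transcripts, so its calls describe them and support no more. By this test 60 of the 224 (26.8%) were higher with BRAT, against 17.2% of all features. In the other direction 24 (10.7%) were higher with PUM, against 22.2% of all features. A call in either direction was made for 84 (37.5%), close to the 39.4% of all features, so such differences were about as common in the set as elsewhere. The difference had a median of -0.18 over all features and was not centered for the test. With centered ratios the counts were 71 and 19, and with cyclic loess they were 70 and 20. When the replicate numbers were ignored the counts were 38 and 16. Calls over all features were not counted in these refits.

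The 60 transcripts higher with BRAT had a median BRAT ratio of 1.97 beside a median PUM ratio of 0.81. The 24 higher with PUM had a median BRAT ratio of 0.75 beside a median PUM ratio of 1.88. At the median the lesser enrichment of these groups was near that of the whole set, where the smaller mean ratio had a median of 0.81. The highest lesser ratios were 2.64 among the former, for FBtr0071122, and 2.38 among the latter, for FBtr0086152. The 140 without a call had medians of 0.98 with BRAT and 0.96 with PUM. Of these 140, the 95% confidence interval of the difference lay within 1.5-fold in 37 and within 2-fold in 133, so that a difference of more than 1.5-fold could not be set aside for most of them.

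**Figure D4:**
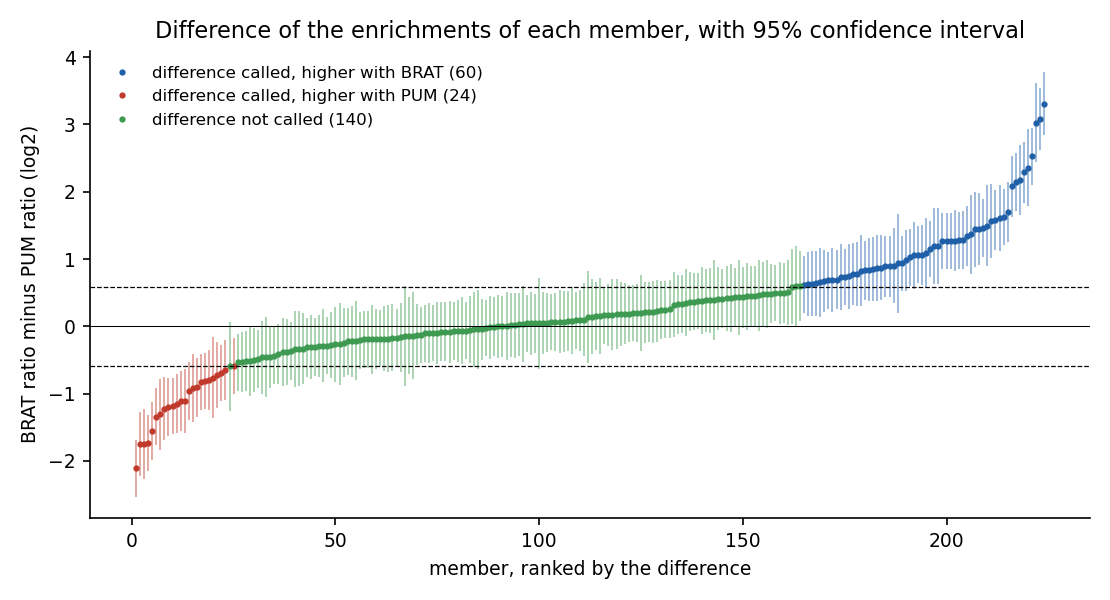
BRAT ratio minus PUM ratio (y axis, log2) of the 224 co-enriched transcripts in rank order (x axis), with 95% confidence intervals from limma and dashed lines at 1.5-fold. The differences run from -2.11 to 3.31 without a gap between the called and the other transcripts.

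On the BRAT side, FBtr0079330 had the largest difference among the co-enriched transcripts. Its signals were 14.50, 14.60 and 14.21 in the BRAT RIP against 10.85, 10.66 and 9.94 in the control, and 11.76, 11.60 and 10.61 in the PUM RIP against 11.06, 10.91 and 10.08. The BRAT signals stood far above the control, whereas the PUM signals overlapped it. The mean ratios were 3.95 (15.5-fold) and 0.64 (1.56-fold), and they differed by 3.31 (SE 0.21, limma adjusted p = 8.66e-06). FBtr0100861 and FBtr0290018 followed, with BRAT ratios of 3.95 and 3.91, PUM ratios of 0.86 and 0.88 and differences of 3.08 and 3.03. FBtr0079353 and FBtr0086746 had BRAT ratios of 3.66 and 3.06 and PUM ratios of 1.13 and 0.70. The 6 ratios of FBtr0078309 were among the widest spread, at 2.47, 2.34 and 3.93 with BRAT and 0.46, 0.32 and 1.54 with PUM. In both RIPs its ratio was highest in replicate 3, where its control signal was lowest. All 3 BRAT ratios exceeded the PUM ratio of the same replicate number in 82 of the 224 transcripts, and the reverse held in 43. The same was not counted over all features, so no lean of the set is read from these counts.

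On the PUM side, FBtr0074351 had the largest difference. The PUM set held 14.21, 14.00 and 13.97 against 11.63, 11.36 and 10.72 in the control, and the BRAT set 11.84, 11.52 and 11.62 against 11.34, 11.13 and 10.39. Every RIP signal lay above every control signal in both sets, narrowly so with BRAT. The mean ratios were 0.71 (1.63-fold) with BRAT and 2.82 (7.07-fold) with PUM, a difference of -2.11 (SE 0.19, limma adjusted p = 2.99e-05). FBtr0084510, FBtr0075679, FBtr0079103 and FBtr0078423 came next, with differences from -1.75 to -1.56 and PUM ratios of 2.78, 2.61, 2.56 and 2.21. The BRAT ratio was highest in replicate 3 for FBtr0074351, FBtr0084510, FBtr0079103 and FBtr0078423, at 1.23, 1.64, 1.48 and 1.08, where their other BRAT ratios lay between 0.29 and 0.74.

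The fend transcript FBtr0071349 lay on the PUM side as well. With PUM the signals were 13.30, 12.67 and 12.24 against 11.36, 11.31 and 11.35 in the control. With BRAT the signals were 11.85, 11.86 and 12.27 against 11.49, 11.10 and 11.49. The groups did not overlap in either set, but the PUM signals were spread over 1 log2 unit while the controls were level. Its mean ratios were 0.64 (1.55-fold) with BRAT and 1.40 (2.64-fold) with PUM. The difference of -0.76 (SE 0.27, limma adjusted p = 0.0441) rested on replicate 1, without which it was -0.35 (adjusted p = 0.300). The call of this difference was also lost with replicate numbers ignored, with centered ratios and with cyclic loess, at adjusted p of 0.0749, 0.0847 and 0.0621.

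The other transcript paired with the gene table, FBtr0073063, was listed under 2 genes and is given no name. Its 6 ratios spanned 0.42, where the median span was 1.20, and stood at 1.21, 1.34 and 1.44 with BRAT and 1.24, 1.02 and 1.13 with PUM. The difference of 0.20 had a 95% confidence interval from -0.23 to 0.63.

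Co-enriched transcripts can belong to the same gene, which the identifiers alone do not show. Among the 224, 19 had an identifier next in number to that of another, in 8 runs. The longest run was that of FBtr0086150, FBtr0086151, FBtr0086152 and FBtr0086153. Their BRAT ratios were 1.59, 1.14, 2.38 and 0.86, and their PUM ratios were 1.58, 1.64, 3.30 and 0.71. The last values, of FBtr0086153, were measured near the upper limit of the scanner and may understate its enrichment. Mean signals over the 12 columns ran from 9.91 for FBtr0086152 to 15.29 for FBtr0086153, so these rows did not carry the same values. In the run of FBtr0070072, FBtr0070073 and FBtr0070074 the BRAT ratios were 0.83, 0.70 and 0.83, while the PUM ratios were 0.74, 0.65 and 1.97. The last of these passed the test of the difference, at -1.15 (limma adjusted p = 0.00146). The differences of the others were 0.09 and 0.05, with intervals from -0.33 to 0.51 and from -0.41 to 0.51.

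FBtr0086153 was the brightest of the co-enriched transcripts. It had signals of 15.56, 15.66 and 15.99 with BRAT against 15.35, 15.41 and 13.87 in the control, close to the upper limit of 16 that a 16-bit scanner can record. Signals cannot rise past that limit, so the ratios of this transcript may be compressed. In the PUM set the signals were 15.90, 15.55 and 15.42 against 15.36, 15.41 and 13.97. Its ratios were 2.12 with BRAT and 1.45 with PUM in replicate 3 and at most 0.55 elsewhere. All 4 ratios outside replicate 3, where the control was low, thus lay under the threshold, and the transcript was called in neither RIP (limma adjusted p = 0.0759 with BRAT and 0.122 with PUM).

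Many co-enriched transcripts were measured at dim signals. A mean over the 12 columns below the 25th percentile of all features was found in 100 of the 224 (44.6%). It was found in 22.2% of the 1149 features past the threshold with BRAT and below it with PUM, and in 32.7% of the 511 features past it with PUM and below it with BRAT. Signal depends on the probes as well as on the RNA, so these shares describe how brightly the rows were read and not how abundant the transcripts were. The control signal enters both ratios, and the shares were in part chosen by the rule. Median RIP signals of the co-enriched transcripts were 11.56 (BRAT) and 11.37 (PUM), against 11.58 and 11.86 over all features. Their median control signals were 10.13 and 10.4, against 11.64 and 11.84. At the median the set had lower control signals than all features and no higher RIP signals. The rule subtracts the control in both ratios, so it chose in part for low control signals, and no more is read from these medians. In the 1149 features the BRAT RIP median was 12.75 over a control of 11.5. In the 511 the PUM RIP median was 12.36 over 11.32.

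To see the same measures in a replicate whose ratios did not choose the features, the rule was applied to 2 replicate numbers and the ratios were read in the third. All replicates of a set were normalized together, and which samples shared an array is not known. The left-out values are thus not fully independent of the choice. Replicates 2 and 3 chose 281 features, and in replicate 1 both ratios were at least 0.585 in 133 of them (47.3%), against 5.54% of all features. Replicates 1 and 3 chose 266, of which 136 (51.1%) passed in replicate 2, against 5.61% of all features. Replicates 1 and 2 chose 296, of which 115 (38.9%) passed in replicate 3, against 5.41%. In each left-out replicate the share was thus several times that of all features, and in replicates 1 and 3 most chosen features still missed the threshold in at least 1 RIP. The RIPs of the left-out replicate share their control preparation, which also moves both ratios together among all features. Median control signals of the chosen features there were 10.3 to 10.33 in the BRAT set, against 11.63 to 11.65 for all features. In the PUM set they were 10.47 to 10.62, against 11.83 to 11.85. Their median RIP signals, 11.27 to 11.38 with BRAT and 11.02 to 11.45 with PUM, lay below those of all features. Low control signal and recovery with both Fabs cannot be told apart in these shares.

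The left-out replicates also gave the ratios without that choice. Median BRAT ratios there were 0.89, 0.92 and 1.12 for replicates 1, 2 and 3, and median PUM ratios were 0.81, 0.81 and 0.51. The PUM ratio of replicate 3 was at least 0.585 in 46.3% of the features chosen by the others, whereas 63.3% and 68.0% reached it in replicates 1 and 2. For BRAT these shares were 63.7%, 69.9% and 75.3%. Over all features the shares in replicates 1, 2 and 3 were 16.3%, 14.2% and 14.4% with PUM. With BRAT they were 20.5%, 20.9% and 21.9%. Among the chosen features replicate 3, the only Cy5 replicate, was thus the lowest for PUM and the highest for BRAT. Dye and replicate number cannot be told apart in this.

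**Figure D5:**
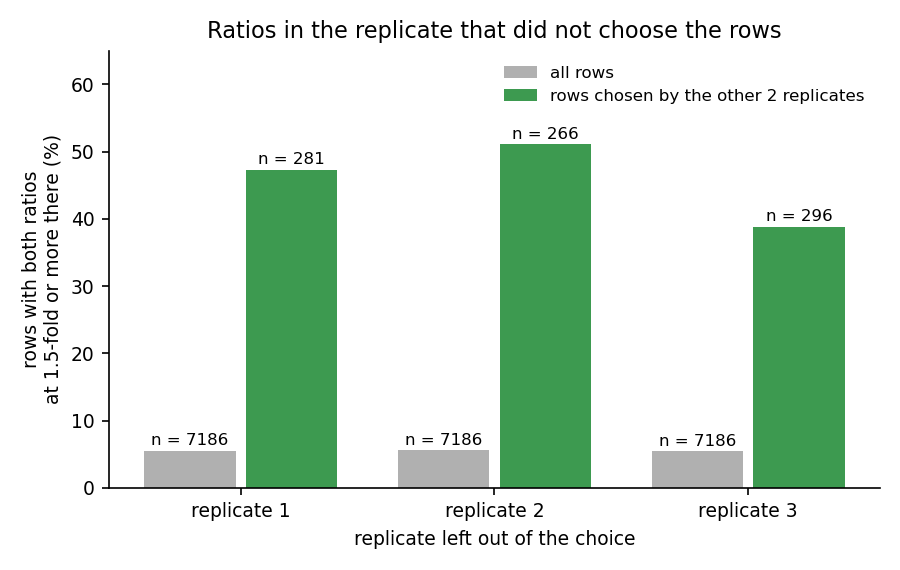
Share of features with both ratios at 1.5-fold or more in the left-out replicate (y axis, percent) for features chosen by the other 2 replicates (green) and all 7186 features (gray), by replicate left out (x axis). Numbers above the bars are features. The green bars stand at 47.3%, 51.1% and 38.9%, and the gray bars between 5.41% and 5.61%.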

How the data were processed

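Signals were measured on custom NimbleGen Drosophila arrays (the study's methods). The authors quantified the scans with NimbleScan and normalized them in ArrayStar by RMA quantile normalization, each RIP together with the controls but BRAT and PUM separately. The deposited values are taken as log2 from their range, as the highest was 15.993, just under the limit of a 16-bit scanner. They hold a value per transcript. Of 17130 rows, 7186 held values in all 12 columns and were used, and the other rows held none. Each array took 1 sample per dye, and the pairs hybridized together are not stated in the sources used here. The precision is limited by the 3 replicates, and scanner signals over background were not used here.

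Columns were assigned to groups by GEO's labels. For each set, RIP and control were fitted with limma 3.58.1 (lmFit and eBayes, under R 4.3.3), the replicate number as a block, two-sided, adjusted by Benjamini-Hochberg over 7186 features. Calls were made at 1.5-fold and an adjusted p under 0.05. The pairing follows the study's paired test. Deviations from the group means of RIP and control columns of 1 number correlated, for replicates 1, 2 and 3, at 0.532, 0.297 and 0.457 (BRAT) and at 0.505, 0.322 and 0.356 (PUM). As all exceeded 0.1, samples of the same number were treated as pairs. The difference of enrichments was fitted on 3 differences of ratios. Replicates of all groups correlated at r of 0.926 to 0.968 across features. Copies of a control correlated at 0.993 to 0.994 and were never counted as separate replicates. The fits were run on simulated data in which the controls of both sets were drawn independently. The real controls are copies, so that run does not match the design for the difference of enrichments or for calls in both RIPs. Figures were drawn with matplotlib 3.10.9.

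The transcripts, the lists and the rules for naming were chosen with earlier results of these data known. The rule named the 10 with the highest smaller ratio, the 5 with the largest difference each way, the 3 with the widest range of ratios, features around the threshold, consecutive identifiers and those with a gene symbol. The text gives a selection of these. FBtr0086153 was singled out after its values were seen.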

Additional observations from a re-analysis of the deposited data

Results flagged for a closer look

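A test of the difference between both enrichments picked out 60 co-enriched transcripts (26.8%, against 17.2% of all features) as higher with BRAT and 24 (10.7%, against 22.2%) as higher with PUM (limma, adjusted p under 0.05, 1.5-fold or more). In either direction this was 37.5% of them, against 39.4% of all features. The counts were 38 and 16 when the replicate numbers were not paired, 71 and 19 with centered ratios, and 70 and 20 with cyclic loess. Calls over all features were not counted in these fits. Named transcripts with such a difference were, on the BRAT side, FBtr0079330 (3.31), FBtr0100861 (3.08), FBtr0290018 (3.03), FBtr0079353 (2.52) and FBtr0086746 (2.36), each given as BRAT ratio minus PUM ratio on the log2 scale. On the PUM side they were FBtr0074351 (-2.11), FBtr0084510 (-1.75), FBtr0075679 (-1.74), FBtr0079103 (-1.74), FBtr0078423 (-1.56) and the fend transcript FBtr0071349 (-0.76). The direction held in all 3 replicates for each of these 11 transcripts. They are listed for the size or the call of this same difference, so that agreement is no further support. The ratios that make up the differences also chose the transcripts.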

How the results depend on the processing

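The rule gave 224 transcripts as run. It gave 138 with no replicate block, where all RIP columns had to lie above all control columns, 58 at 2-fold in both RIPs, 124 without features below the 25th percentile of signal, and 266 to 296 without a replicate. Centered ratios gave 264, of which 219 were among the 224, and cyclic loess gave 227, of which 196 were. Counts of calls moved by over 1.5 times with no replicate block in the PUM RIP (66), in both RIPs (49) and for a higher enrichment with BRAT (38). Without dim features, where 124 of the 224 were left to test, 124 were called in the BRAT RIP and 34 were higher with BRAT. Leaving out a replicate gave 193 to 203 calls with BRAT, 28 to 141 with PUM, 25 to 122 with both, 51 to 56 higher with BRAT and 19 to 29 higher with PUM. The lowest counts in the PUM RIP and in both came without replicate 1, and the cause was not tested. Calls over all features were not counted under these alternatives. With both ratios above 0 in place of 1.5-fold, 76.9%, 89.5% and 77.0% of the chosen features passed in left-out replicates 1, 2 and 3. Over all features these shares were 25.7%, 29.7% and 25.5%. Of 328 values of ratios of named transcripts under the alternatives, 5 moved by more than the SD between replicates and none reversed. Of 92 differences, 4 lost their call, all of FBtr0071349, and none reversed. Dropping the replicate block, changing the variance prior or removing dim features cannot change a ratio or a difference, so part of these values could not move. The rule made every ratio of these transcripts positive, so leaving out a replicate could not reverse a ratio. Most of the differences were named for their size, so little is read from the lack of reversals. The search for PUM and BRAT elements and the gene lists were not run, for want of sequences and symbols here.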
